A study of Mus musculus with 4 samples.

Results

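The acetylcholine receptor of skeletal muscle was followed here through its subunit genes Chrna1, Chrnb1, Chrnd, Chrne and Chrng. The members were all probe sets, that is groups of short probes for a transcript, whose single gene symbol in the platform's gene table is one of these names. All 5 genes were on the array, with 8 probe sets among 12422 that are not controls: 1 each for Chrna1, Chrnb1 and Chrnd, 3 for Chrne and 2 for Chrng. Total RNA of murine skeletal muscle was measured on 4 arrays, 2 coded J (replicates 1a and 1c) and 2 coded NJ (replicates 1a and 1d), all at 0 h and all with Ctr in the title. The codes are not spelled out. The series takes its title from the neuromuscular junction, where a motor nerve meets its muscle fibre. The labels give no strain, age, treatment, muscle or number of animals. The spread between arrays of a group may therefore be technical, and p-values measure only that spread and its trend over all probe sets.

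The receptor is a ring of subunits that opens a cation channel when acetylcholine from the nerve terminal binds, and so starts the contraction of the fibre. Alpha subunits, encoded by Chrna1, hold most of the binding site, while beta (Chrnb1) and delta (Chrnd) complete the ring. Fetal and denervated muscle uses gamma (Chrng), which epsilon (Chrne) replaces in the adult receptor. In innervated adult muscle the receptor is packed at the synapse, and nuclei beneath it are known to transcribe subunit genes more than other nuclei of the fibre do. Transcription of these genes is known to use E-boxes, sites of MyoD family factors, and, for some of them, an N-box, a site of ETS factors such as GABP.

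The stretches of DNA before the start of Chrna1, Chrne and Chrng are shown because the largest differences between J and NJ were at Chrna1 and Chrne, and because gamma and epsilon replace each other in the receptor. They come from RefSeq (GRCm38.p6), which matched 4 of the 5 members, and run 5′ to 3′ on the gene's strand over 250 bases up to the transcript's start. The Chrna1 stretch lies at chr2:73580339-73580588 (minus strand), that of Chrne at chr11:70619195-70619444 (minus strand) and that of Chrng at chr1:87205561-87205810 (plus strand). Capitals mark the E-box letters CANNTG, which read alike on both strands, and the N-box letters CCGGAA on either strand.
Chrna1: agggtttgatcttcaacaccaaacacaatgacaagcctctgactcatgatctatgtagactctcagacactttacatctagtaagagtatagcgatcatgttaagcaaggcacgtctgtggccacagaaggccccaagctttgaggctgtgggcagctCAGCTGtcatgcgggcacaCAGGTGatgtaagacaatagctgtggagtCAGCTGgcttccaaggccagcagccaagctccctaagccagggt
Chrne: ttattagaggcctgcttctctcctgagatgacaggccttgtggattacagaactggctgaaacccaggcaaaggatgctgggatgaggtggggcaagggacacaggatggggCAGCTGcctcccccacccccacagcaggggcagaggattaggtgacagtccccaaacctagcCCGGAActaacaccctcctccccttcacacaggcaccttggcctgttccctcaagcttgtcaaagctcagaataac
Chrng: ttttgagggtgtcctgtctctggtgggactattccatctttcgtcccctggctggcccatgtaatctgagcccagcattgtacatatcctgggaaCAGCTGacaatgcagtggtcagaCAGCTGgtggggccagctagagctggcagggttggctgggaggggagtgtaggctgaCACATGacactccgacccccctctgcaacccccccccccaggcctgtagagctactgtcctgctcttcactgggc
The stretches of Chrna1 and Chrng held 3 E-box matches each and no N-box match. That of Chrne held 1 E-box match and 1 N-box match, the latter 76 to 71 bases before the start, and the 2 did not overlap. The stretch of Chrnb1 (chr11:69795938-69796187, minus strand) held 3 E-box matches and no N-box match. Of 32851 such stretches in the RefSeq table, 66.2% held at least 1 E-box match, 12.2% held 3 or more, and 12.0% held an N-box match. Matches are letters only and do not show binding.

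Intensities as deposited are on a linear scale. Unless another scale is named, a difference is J minus NJ on a log2(intensity + 32) scale after quantile normalisation, given with limma's standard error (SE), n = 2 arrays per group. Changes of dim probe sets come out too small on it. The arrays did not sort by group. Over the 9316 probe sets bright enough to test, the highest correlation was that of J 1c with NJ 1d (Pearson's r = 0.907, across probe sets). It was 0.761 between the J arrays and 0.824 between the NJ arrays. J 1a was the least like the others, at 0.761 to 0.775, the latter with NJ 1a, while NJ 1a stood at 0.822 with J 1c. The 1a arrays were thus not alike either. Of 15 muscle fibre markers, 14 were bright enough to test. Their summed deposited intensity was 260048 on J 1c and 1412220 on J 1a, against 797631 and 1091410 on the NJ arrays. The brightest markers weigh most in these sums, and J 1c had the lowest maximum, 41086 against 125534 to 238288 on the other arrays. After normalisation the median difference of the 14 markers was −0.12, with 6 higher and 8 lower in J. The sums are therefore no measure of how much fibre RNA each array held. With limma, 0 probe sets passed at a Benjamini-Hochberg adjusted p under 0.05 in either direction (smallest adjusted p = 0.999), and 117 were higher and 82 lower at an unadjusted p under 0.05. With a term for the number format of the deposited columns, full digits for both 1a arrays and 1 decimal for the others, limma called 4 higher and 4 lower (0.0429% of those tested in each direction), with 0 of 8 subunit probe sets among them. The array pairs that share a format are called the 1a pair (J 1a and NJ 1a) and the 1c/1d pair (J 1c and NJ 1d) here.

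All 8 subunit probe sets had a mean above the brightness limit of the test, 7.22 on the log2 scale, which corresponds to an intensity of about 117. None passed the test (limma adjusted p = 0.999 for each). The groups did not overlap for 5 of the 8, each higher in J, against 13.6% of all probe sets tested with both J arrays above both NJ arrays. In the other direction it was 0 of 8, against 12.8%. The 5 were those of Chrna1 and Chrnd, 2 of the 3 for Chrne and 1 of the 2 for Chrng. At an unadjusted p under 0.05, limma had 1 of the 8 higher, against 1.26% of all, and 0 lower, against 0.88%. That probe set, Chrne 92966_g_at, is also among the 5 and entered the test only through its J values, its NJ values lying under the brightness limit. The count higher was 3 of 8 with the number-format term, against 2.78% of all. It was 2 of 8 on the deposited scale (1.25% of all), with a pseudocount of 100 (1.34%) and without the intensity trend (1.64%). With the filter at the median it was 0 of 5, against 0.902% of all. The genes were chosen with earlier results of these arrays known, and probe sets of a gene measure the same transcript, so these counts describe the members and test nothing. With 2 arrays a side, the smallest two-sided p of an exact permutation test is 0.333.

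**Figure D1:**
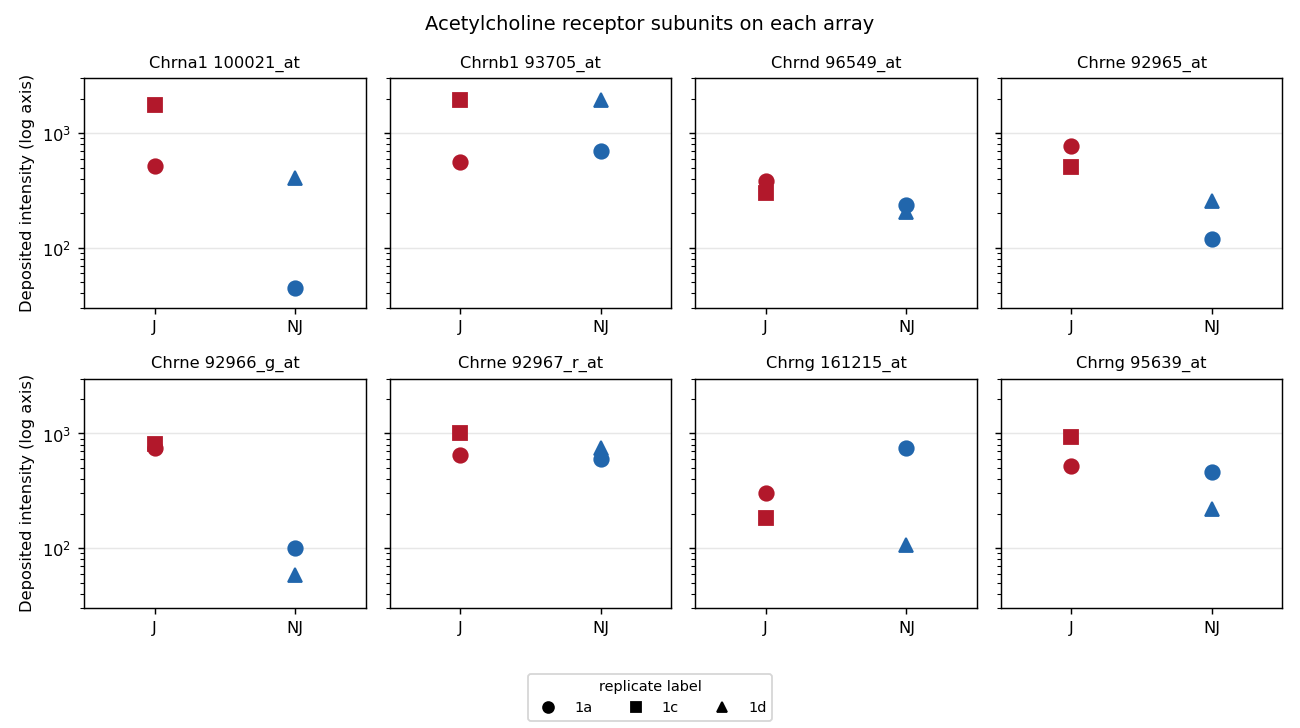
Deposited intensity (log axis) of each subunit probe set on the J arrays (red) and NJ arrays (blue), with marker shapes for the replicate labels. The J arrays stand apart from the NJ arrays most widely at Chrne 92966_g_at, with 744 and 809.9 against 101 and 58.0, while Chrnb1 is near 1959 on J 1c and NJ 1d alike.

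Chrna1, which encodes the subunit that binds acetylcholine, was higher on both J arrays. Its probe set 100021_at had intensities of 515 on J 1a and 1777 on J 1c, against 44.8 on NJ 1a and 404 on NJ 1d. The groups did not overlap, but J 1a and NJ 1d lay close to each other, 0.02 apart after normalisation. Group means on the log2 scale were 9.86 ± 1.29 in J and 7.50 ± 2.02 in NJ (SD, n = 2 each). The difference was 2.36 ± 1.05 (SE), or 5.12-fold, with a 95% interval from −0.003 to 4.72 (limma adjusted p = 0.999). The NJ 1a value, 6.07 on the log2 scale, lay under the brightness limit of 7.22, so the fold is poorly resolved. Only 16 of the 9316 probe sets tested, Chrna1 included, had a difference as large in this direction.

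The size of the Chrna1 difference turned on single arrays, most on those of NJ. It was 2.88 in the 1a pair and 1.84 in the 1c/1d pair. Without NJ 1a, where Chrna1 was lowest, it was 0.93, and without NJ 1d it was 3.79. Leaving out J 1c gave 1.45 and leaving out J 1a 3.27. Chrna1 was brightest on J 1c, the array with the lowest summed muscle fibre markers and the lowest maximum intensity. The part of either in the result was not tested. In such bulk RNA, fewer nuclei or cells of a kind and less transcript in each cannot be told apart.

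Chrnb1, the beta subunit, showed no difference in a fixed direction. Its probe set 93705_at had intensities of 561 on J 1a and 1959 on J 1c, against 699 on NJ 1a and 1959 on NJ 1d. The 1a arrays were low and the other arrays high in both groups. The difference was −0.21 ± 0.71 (SE; 95% interval −1.81 to 1.40; limma adjusted p = 0.999), that is 1.16-fold higher in NJ, and this interval still holds changes of more than 1 in either direction. The difference turned to 0.71 when J 1a was left out and to 0.54 when NJ 1d was, so 1 array decided its sign. In the 1a pair it was −0.38 and in the 1c/1d pair −0.04.

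Chrnd, the delta subunit, was slightly brighter on both J arrays. Intensities at 96549_at were 383 on J 1a and 301 on J 1c, against 238 on NJ 1a and 205 on NJ 1d. Replicates lay close together, with log2 means of 8.51 ± 0.02 in J and 8.01 ± 0.15 in NJ (SD, n = 2 each), and the groups were 0.38 apart at their nearest. The difference was 0.50 ± 0.75 (SE), or 1.42-fold, with a 95% interval from −1.19 to 2.19 (limma adjusted p = 0.999). The SE exceeds the replicate SDs because limma draws each variance toward the trend for probe sets of like brightness. With each array left out the difference stayed between 0.40 and 0.61.

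Chrne, the epsilon subunit of the adult receptor, was higher in J at 2 of its 3 probe sets, and the size differed widely among them. In the maker's naming, g marks a set picked from sequence that related entries share and r a set for which a design rule was dropped. At 92966_g_at the intensities were 744 on J 1a and 809.9 on J 1c, against 101 on NJ 1a and 58.0 on NJ 1d. Both J arrays were far above both NJ arrays, with log2 means of 9.63 ± 0.14 in J and 6.82 ± 0.10 in NJ (SD, n = 2 each). This was the receptor probe set with the largest difference, 2.80 ± 0.76 (SE) or 6.98-fold on this scale, with a 95% interval from 1.11 to 4.50 (limma adjusted p = 0.999). Both NJ values, 6.89 and 6.75 on the log2 scale, lay under the brightness limit of 7.22, so the probe set entered the test through its J values, and the fold rests on an NJ level that is poorly resolved.

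The 92966_g_at difference was alike in both array pairs, 2.64 in the 1a pair and 2.97 in the 1c/1d pair. Leaving out each array in turn gave 2.71 to 2.90. With the number-format term limma's adjusted p was 0.340, the lowest of this probe set under the settings tried, the highest being 0.999947.

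At the second Chrne probe set, 92965_at, intensities were 773 on J 1a and 508 on J 1c, against 118 on NJ 1a and 257 on NJ 1d. The groups did not overlap and were 0.77 apart at their nearest after normalisation. Log2 means were 9.37 ± 0.32 in J and 7.73 ± 0.92 in NJ (SD, n = 2 each). The difference was 1.64 ± 0.79 (SE), or 3.13-fold, with a 95% interval from −0.13 to 3.42 (limma adjusted p = 0.999). It was 2.52 in the 1a pair but 0.77 in the 1c/1d pair, and 0.99 without NJ 1a against 2.30 without NJ 1d. The NJ 1a value, 7.08 on the log2 scale, lay under the brightness limit of 7.22.

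The brightest Chrne probe set, 92967_r_at, did not separate the groups. It had intensities of 652 on J 1a and 1008 on J 1c, against 605 on NJ 1a and 742 on NJ 1d, so that NJ 1d lay between the J arrays. The difference was 0.20 ± 0.57 (SE; 95% interval −1.08 to 1.48; limma adjusted p = 0.999), and it was −0.01 without NJ 1a and −0.15 without J 1c. A rule that lets the brightest probe set stand for a gene thus gives Chrne a difference of 0.20, where its other probe sets give 1.64 and 2.80. The platform table lists a source sequence for the latter but none for 92967_r_at.

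Chrng, the gamma subunit of fetal muscle, gave opposite signs at its probe sets. At 95639_at intensities were 523 on J 1a and 923 on J 1c, against 458 on NJ 1a and 218 on NJ 1d. The groups did not overlap, though J 1a and NJ 1a were only 0.13 apart after normalisation. The difference was 0.92 ± 0.70 (SE), or 1.89-fold, with a 95% interval from −0.65 to 2.49 (limma adjusted p = 0.999). It came mostly from the 1c/1d pair, at 1.71 against 0.13 in the 1a pair, and was 0.46 without J 1c and 1.38 without J 1a.

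At the other Chrng probe set, 161215_at, intensities were 302 on J 1a and 183 on J 1c, against 743 on NJ 1a and 106 on NJ 1d. The NJ arrays were the highest and the lowest, with the J arrays between them. The difference was −0.40 ± 0.91 (SE; 95% interval −2.45 to 1.65; limma adjusted p = 0.999). It turned from −1.36 in the 1a pair to 0.56 in the 1c/1d pair, and was 0.71 without NJ 1a. Like 92967_r_at of Chrne, this probe set has no source sequence in the platform table.

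**Figure D2:**
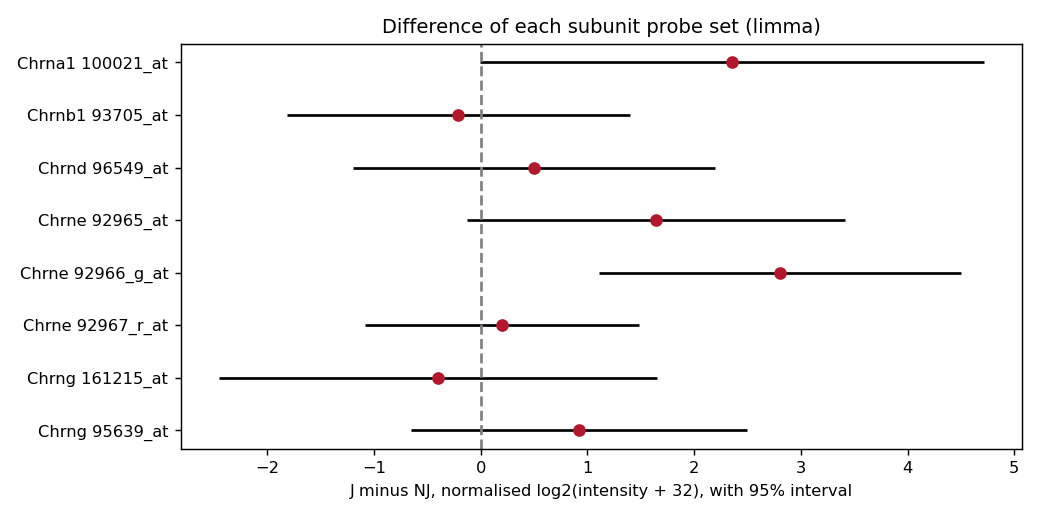
J minus NJ of each subunit probe set on the normalised log2(intensity + 32) scale (points) with limma's 95% interval (lines), over 2 arrays per group. The interval of Chrne 92966_g_at, 1.11 to 4.50, lies above 0, that of Chrna1 reaches just below it at −0.003, and the other 6 span it.

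**Figure D3:**
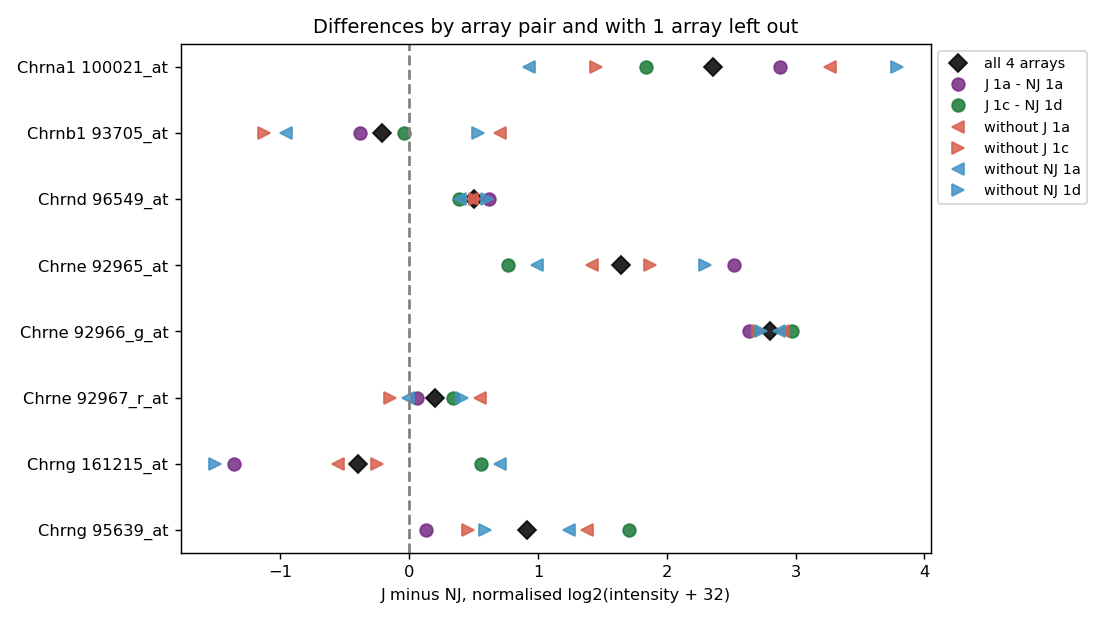
J minus NJ on the normalised log2(intensity + 32) scale for each subunit probe set over all 4 arrays (diamonds), within the 1a pair and the 1c/1d pair (circles) and with 1 array left out (triangles). Chrne 92966_g_at stays between 2.64 and 2.97 and Chrnd between 0.38 and 0.62, while Chrna1 runs from 0.93 to 3.79 and Chrnb1 from −1.13 to 0.71.

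For each subunit probe set the 3 probe sets of other genes with the nearest pattern were taken. The measure was the Euclidean distance between normalised log2 values, each centred on its own mean, over 4 arrays. With so few arrays many patterns lie close, and the distances describe these arrays only. Nearest to Chrna1 were Ankrd1, a stress-responsive ankyrin repeat protein of muscle, at a distance of 0.68, Fgf6, a growth factor of muscle, at 0.998, and then Rell1. Being chosen for nearness, these genes shared its low value on NJ 1a and high value on J 1c, with differences of 1.92, 2.03 and 1.42.

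Nearest to Chrne 92966_g_at were Irf8, a transcription factor of blood cells (distance 0.29), the adhesion molecule Cadm1 (0.53) and Phldb2, which encodes the phosphoinositide-binding protein LL5-beta (0.56). Their differences were 2.56, 2.43 and 3.32. Being chosen for nearness to this probe set, each was high on both J arrays and low on both NJ arrays. The other Cadm1 probe sets did not follow this pattern. Of these, 93605_r_at stood at 332 on J 1a and 33.6 on J 1c, with 306 on NJ 1a and 80.3 on NJ 1d, and 93606_s_at at 787 and 771 on the J arrays, with 366 and 895 on the NJ arrays. Nearest to Chrng 95639_at were Vamp7, a vesicle fusion protein (0.22), Myog, the muscle transcription factor myogenin (0.22), and Lpp, a protein of focal adhesions (0.23).

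**Figure D4:**
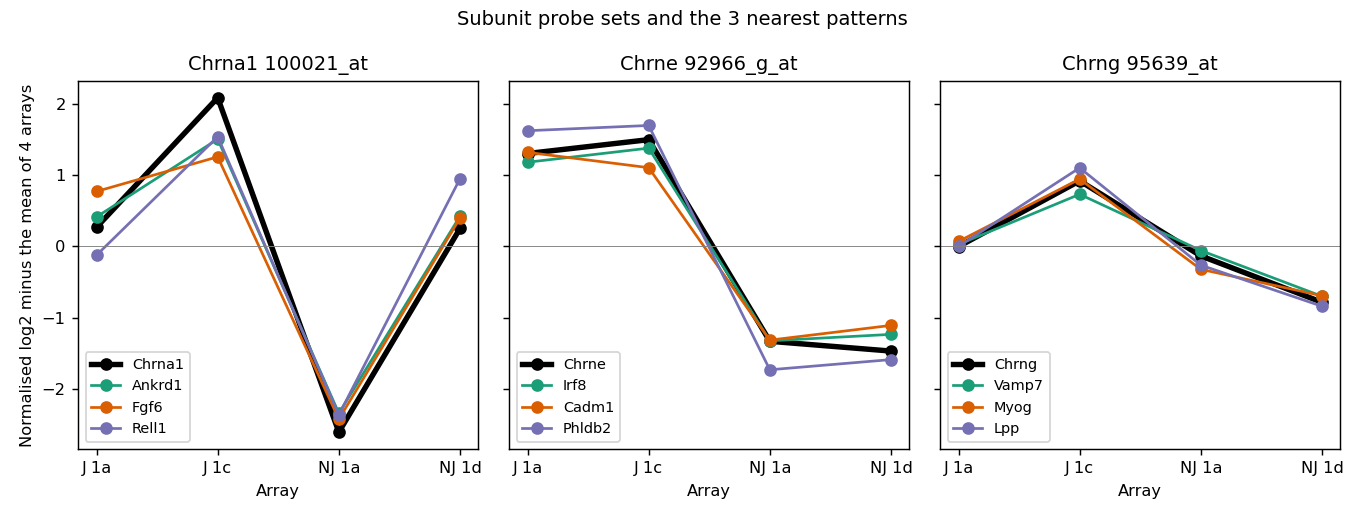
Normalised log2 values minus the mean of the 4 arrays for Chrna1, Chrne 92966_g_at and Chrng 95639_at (black) and the 3 nearest probe sets of other genes (colours). The Chrne pattern is flat within groups and steps down by 2.80 from J to NJ, while the Chrna1 pattern has its low point on NJ 1a.

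Nearest to Chrnb1 were Agrn, which encodes the receptor-clustering signal agrin, at 0.07, and Gata4 and Sf3a1 at 0.10 and 0.12. For Chrnd they were Pttg1, Zmynd11 and Xpr1, at 0.07 to 0.10. For Chrne 92965_at they were Fap, Srrt and Aldh18a1, at 0.19 to 0.21, and for 92967_r_at Tfrc, Ttc7b and Araf, at 0.06 each. For Chrng 161215_at they were Ldah, Hes2 and Ago2, at 0.14 to 0.19. The pattern that Agrn shared with Chrnb1 was low on the 1a arrays and high on the others, whichever the group. Agrn had 176 and 585 in J (1a and 1c) against 233 and 548 in NJ (1a and 1d). Agrn, Pttg1, Tfrc, Ldah, Aldh18a1 and Vamp7 each had a further probe set, whose values are not given here. The likeness is therefore of single probe sets.

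Subunits of the neuronal nicotinic receptors, relatives of the muscle receptor in nerve cells, were also followed. Of 11 such genes, 3 had a probe set named for them, all bright enough to test and none past it. Chrna6 had intensities of 675 and 264 in J (1a and 1c) against 105 and 55.3 in NJ (1a and 1d), and Chrna7, whose product can form a receptor alone, 496 and 839 against 195 and 166. Both genes were higher on both J arrays, with differences of 2.03 ± 0.80 and 1.57 ± 0.75 (SE; limma adjusted p = 0.999 for each). Over all genes tested, 13.4% had both J arrays above both NJ arrays. Both NJ intensities of Chrna6 lay under about 117, the brightness limit, so it entered the test through its J values. Chrnb2 overlapped, at 165 and 185 against 265 and 86.3, with a difference of 0.08 ± 0.79. Of the motor neuron and axon markers, 6 of 11 were bright enough to test. Their summed intensity ran from 1847 to 5035 in J and from 2277 to 2838 in NJ, with Slc18a3, Syt1 and Nefm too dim to test and no value at 0.

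Around the muscle receptor, 4 further lists were counted, with the brightest probe set standing for a gene, and 0 of their members passed the test in either direction. Over all 6773 genes tested the median difference was −0.01, and the J arrays lay wholly above the NJ arrays for 13.4% of genes and wholly below for 13.1%. For the 5 subunit genes treated in this way the median was 0.50, with 4 higher and 1 lower in J.

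Genes of receptor clustering and of the fibre's synaptic side had 18 of 25 tested, 8 higher and 10 lower, with a median of −0.03 that was 0.03 when each gene's probe sets were averaged. The J values lay above the NJ values for 6 of the 18 and below for 1, against 13.4% and 13.1% of all genes tested. The list was chosen with earlier results of these arrays known, so this count describes it and tests nothing. The smallest p belonged to Prkar1a, which regulates protein kinase A, at 2.41 ± 0.39, then Phldb2 at 3.32 ± 0.66, the filament protein gene Nes at 2.09 ± 0.45 and Ache, for acetylcholinesterase, at 1.87 ± 0.77 (SE). The Ache difference came mostly from the 1a pair, at 3.35 against 0.40 in the 1c/1d pair. Rapsn, whose product rapsyn anchors the receptor, and Agrn differed by −0.16 ± 0.39 and −0.17 ± 0.90. Musk, the kinase that agrin activates, was too dim to test, at 70.3 and 61.9 on the J arrays and 105 and 28.1 on the NJ arrays.

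Among genes of neuregulin signalling and ETS factors, the class that binds N-boxes, 7 of 12 were tested, 4 higher and 3 lower, with a median of 0.35 that had no fixed sign. It was −0.11 without J 1c, −0.20 without NJ 1d and 0.09 without NJ 1a, −0.09 in the 1a pair and 0.50 in the 1c/1d pair. Ets1 differed by 1.81 ± 0.94, mostly in the 1a pair (3.12, against 0.50 in the 1c/1d pair). Etv4 differed by 0.35 ± 0.51, Ets2 by −0.25 ± 0.47, Gabpa, the DNA-binding subunit of GABP, by 0.37 ± 0.82 and its partner Gabpb1 by −0.16 ± 0.76 (SE).

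Of the factors that bind E-boxes or inhibit those that do, 11 of 16 were tested, 9 higher and 2 lower, with a median of 0.39. Taken pair by pair it was 0.24 (1a) and 0.54 (1c/1d). Over all genes tested, 3316 of 6773 were higher. The list pools E-box binding factors with their inhibitors, so its counts and median give no direction for E-box use. Id1, an inhibitor of MyoD family factors, differed by −1.69 ± 0.95, at −3.63 in the 1a pair and 0.26 in the 1c/1d pair. Myog differed by 1.02 ± 0.71, with 509 and 856 on the J arrays above 379 and 214 on the NJ arrays. The inhibitors Id4 and Id2 differed by 1.05 ± 0.81 and 0.65 ± 0.70, and Myod1 by 0.36 ± 0.43 (SE).

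Genes of receptor assembly and turnover had 16 of 24 tested, 8 higher and 8 lower, with a median of 0.01 that was −0.03 when arrays were centred on their medians. The tyrosine kinase genes Src and Fyn, whose products phosphorylate the receptor, differed by −1.66 ± 0.78 and 1.43 ± 0.79. Cul3, of a ubiquitin ligase, differed by −0.82 ± 0.44 and Unc50, involved in receptor trafficking, by −0.39 ± 0.57 (SE). Canx and Hspa5, chaperones of the endoplasmic reticulum, differed by 0.07 ± 0.40 and −0.005 ± 0.38.

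**Figure D5:**
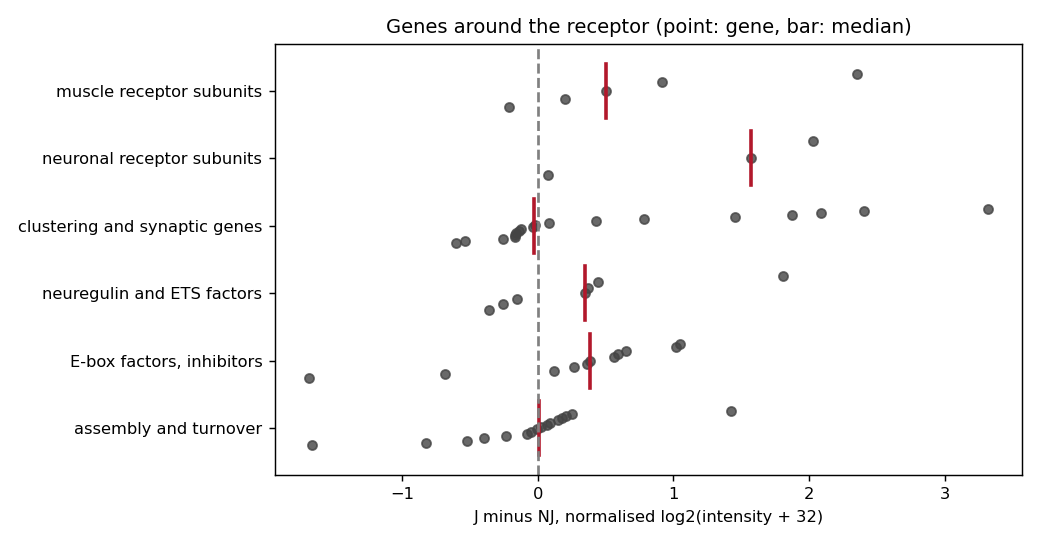
J minus NJ on the normalised log2(intensity + 32) scale for the genes of each list (points, brightest probe set of a gene, spread vertically only to separate them) and the list's median (red bars). The subunit genes have a median of 0.50 with Chrna1 at 2.36, and the neuronal subunits a median of 1.57 over 3 genes.

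Markers of other cells were set beside these values. Summed intensities overlapped between J and NJ for Schwann cells (4629 to 4891 against 3582 to 6325), fibroblasts (44641 to 111843 against 53015 to 62041), satellite cells, endothelium, immune cells, blood, and smooth muscle and pericytes. They did not overlap for adipocytes, at 9451 to 11194 in J against 12237 to 19728 in NJ over 4 of 6 markers, but this rested on Lpl. Without Lpl, a check added after its values were seen, the sums overlapped, at 5528 and 4361 in J (1a and 1c) and 4621 and 4237 in NJ (1a and 1d). Of the 4 markers, 1 was higher and 3 were lower in J. Adipoq was higher on both J arrays, at 1295 and 1132 against 335 and 246. Fabp4 was lower on both, at 1215 and 1104 against 1747 and 1252, as was Lpl, while Lep overlapped, with a difference of −0.06. The smooth muscle and pericyte list had 7 of 7 markers higher in J, with a median of 0.51, and the fibroblast list 7 of 9, with a median of 0.37. Over all genes tested, 3316 of 6773 were higher. Pair by pair, the medians were 0.09 (1a) and 0.73 (1c/1d) for smooth muscle and pericytes, and 0.57 and 0.19 for fibroblasts. Both J arrays lay above both NJ arrays for 2 of the 7 and 4 of the 9, against 13.4% of all genes. The fibroblast sums rest largely on Dcn, at 82874 and 25304 in J (1a and 1c) against 42425 and 36133 in NJ (1a and 1d). After normalisation Dcn was higher on both J arrays, by 0.57 in the 1a pair and 0.76 in the 1c/1d pair. Postn had the largest fibroblast difference, 3.43 ± 0.81 (SE), but its NJ intensities, 43.3 and 75.2, lay under the brightness limit. No marker had a value of 0 on any array, and their part in the differences of the subunits was not tested.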

How the data were processed

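The deposited table holds 1 linear intensity per probe set and array. Which software the authors used is not given in the sources used here. After trimming 2% at each end, the means of the deposited intensity columns lay between 800.5 and 800.6. No array has a detection call here, so whether a dim probe set was detected is not known. Precision is limited by the 2 arrays per group. Of 12488 probe sets, 66 controls were left out of the tests. Names come from the platform's gene table, where 10833 of the other 12422 had a single symbol, 396 several and 1193 none.

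All columns were taken as log2(intensity + 32) and quantile normalised, since their medians ran from 8.29 to 8.67. The 9316 probe sets whose mean exceeded the 25th percentile were tested with limma 3.58.1 in R 4.3.3 (intensity trend, 2 residual degrees of freedom), with p-values adjusted by Benjamini-Hochberg over all of them at a threshold of 0.05. Every subunit probe set is named, with its 3 nearest patterns, and up to 4 members of a list by smallest p. Rapsn, Agrn, Musk, Gabpb1, Myod1, Canx, Hspa5 and the other Cadm1 probe sets were named outside that rule, after their values were seen. The members, lists and settings were chosen with earlier results of these data known. Alternatives were other scalings, pseudocounts of 1 and 100, other filters, no intensity trend, a number-format term and each array left out. Figures used matplotlib 3.10.9 in Python 3.11.15.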

Additional observations from a re-analysis of the deposited data

How the results depend on the processing

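Under other scalings, pseudocounts, filters and variance settings no subunit probe set changed direction or passed the test. Chrna1 ranged from 1.88 to 2.80 over these and Chrne 92966_g_at from 2.24 to 3.22. With the filter at the median, Chrnd, Chrne 92966_g_at and Chrng 161215_at were too dim to test. The number-format term, a batch only by how the columns were written, raised the counts called from 0 to 4 higher and 4 lower, with 1 residual degree of freedom. With each array left out in turn these counts stayed at 0. Signs of subunit probe sets turned only where an array was left out or a single pair was taken. Chrnb1 ran from −1.13 to 0.71 with each array left out, Chrne 92967_r_at from −0.15 to 0.55 and Chrng 161215_at from −1.51 to 0.71, the last at 0.56 between J 1c and NJ 1d. The cause was not tested. Medians of 3 lists had no fixed sign. That of the synaptic list, −0.03, was 0.004 with no filter and 0.03 with the filter at the median, and 0.06 to 0.34 with each array left out. That of assembly and turnover, 0.01, was −0.03 with the filter at the median and ran from −0.15 to 0.15 with arrays left out. That of neuregulin and ETS factors, 0.35, was 0.10 with no filter and 0.05 with the filter at the median, and −0.20 to 0.58 with arrays left out. The groups share only the replicate label 1a, so the labels pair no more than those arrays; the number-format term, which pairs J 1c with NJ 1d by format alone, was the blocked fit made.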
